A study of Mus musculus with 2 samples.

Results

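The genes described here are 10 genes that mark conventional dendritic cells (cDCs), measured in sorted plasmacytoid dendritic cells (pDCs) of mouse bone marrow. They are Batf3, Xcr1, Clec9a, Tlr3, Wdfy4 and Dpp4, which are used mainly as genes of type 1 cDCs (cDC1), Clec10a, Cd209a and Sirpa, used mainly for type 2 cDCs (cDC2), and Zbtb46, which both types share. The genes were given by name, and each was found by taking the probe sets with that single gene symbol in the platform annotation and keeping the brightest of several. All 10 were found among 19938 named genes. One sample came from Runx2-/- fetal liver chimeras, mice whose blood system had been rebuilt with fetal liver cells lacking the transcription factor Runx2, and the other from chimeras made with wild type fetal liver. Cells were taken from bone marrow 2 months after reconstitution and sorted as pDCs that lacked CD11b and carried BST2 and B220. CD11c was also stained, and the stated gate does not use it. RNA, 250 ng per sample, was hybridised to Affymetrix Mouse Gene 1.0 ST arrays, with 1 array per genotype. The labels do not give the number, age or strain of the mice or whether animals were pooled, nor how far the hosts' own blood cells had been replaced.

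Conventional dendritic cells take up antigen and present it to T cells, while pDCs respond to viral nucleic acid with type I interferon. cDC1 depend on BATF3 and IRF8 and are specialised in passing antigen from dead cells to CD8 T cells, a process called cross-presentation. cDC2 depend largely on IRF4 and are known for priming CD4 T cells. In mice, some of the genes used to mark cDCs, such as Clec9a, are also transcribed in pDCs.

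No cDC gene of the 10 was 2-fold apart between Runx2-/- and wild type pDCs, nor 1.5-fold apart. Their log2 differences, Runx2-/- minus wild type, ran from -0.30 for Sirpa to 0.53 for Dpp4, with a median of 0.05, and 7 were above 0 and 3 below. Over all named genes the median was -0.03, 42.6% were above 0 and 56.7% below. The counts of 0 higher and 0 lower stand beside 0.436% of all named genes that were at least 2-fold higher in the Runx2-/- sample and 0.647% that were at least 2-fold lower. At 1.5-fold these shares were 1.73% and 2.22%. A count of 0 of 10 is near that background and is not read as a result about these genes. Since each genotype had 1 array, the differences carry no error and no p-value, and the spread between mice is unknown.

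The genes fell into bright and dim ones, and did so alike on both arrays. The deposited values carry no detection call, so the 1027 olfactory receptor genes, which blood cells are not known to use, served as a description of dim probe sets. Their 95th percentile was 152 intensity units on the Runx2-/- array and 160.2 on the wild type array. On each array 7 of the 10 genes were above it, and Xcr1, Tlr3 and Zbtb46 were not above it on either. A value not above this level on its array is called dim, or in the dim range, from here on. A probe set's brightness depends on its probes as well as on its transcript, so levels are set between arrays here and not between genes.

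**Figure D1:**
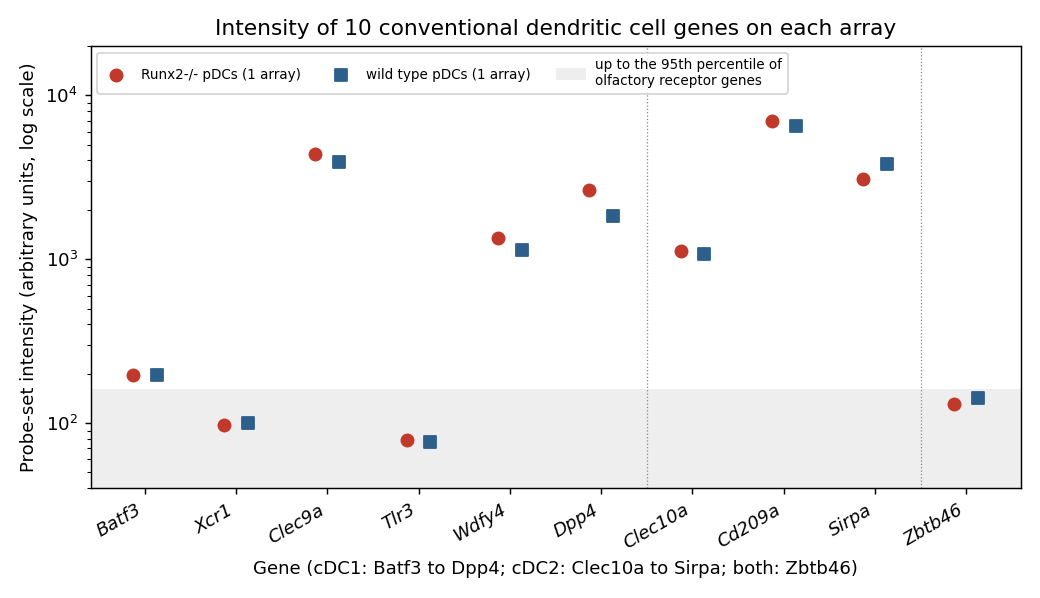
Probe-set intensity (arbitrary units, log axis) of the 10 cDC genes on the Runx2-/- array (red circles) and the wild type array (blue squares), 1 array each and therefore without error bars. The grey band reaches up to the higher of the 95th percentiles of olfactory receptor genes on the arrays, 160.2 units, and Xcr1, Tlr3 and Zbtb46 lie inside it on both arrays.

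Of the cDC1 genes, the transcription factor gene and the genes of 2 receptors gave low and nearly equal values. Batf3, the AP-1 family factor that cDC1 need to develop, had 197 intensity units in Runx2-/- pDCs and 196 in wild type pDCs, a log2 difference of 0.0063. It was just above the olfactory receptor level on both arrays. Xcr1, the receptor for the chemokine XCL1 and the most specific surface marker of cDC1, had 97.4 units in Runx2-/- pDCs and 100.1 in wild type pDCs (log2 difference -0.04). Tlr3, an endosomal sensor of double-stranded RNA, had 79.2 units in Runx2-/- pDCs and 76.3 in wild type pDCs (log2 difference 0.05). Neither of these receptor genes could be told from dim background probe sets, so a difference at their true levels was not detectable.

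Clec9a, Wdfy4 and Dpp4 were bright on both arrays. Clec9a encodes DNGR-1, a lectin that recognises actin filaments exposed by dead cells. It had 4366 units in Runx2-/- pDCs and 3891 in wild type pDCs, which is 1.12-fold higher in Runx2-/-. Wdfy4, a BEACH domain protein gene that cDC1 need to cross-present cell-associated antigen, was the 1 gene with 2 probe sets. The brighter had 1344 units in Runx2-/- pDCs and 1134 in wild type pDCs, a log2 difference of 0.25. The dimmer had 926 units in Runx2-/- pDCs and 941 in wild type pDCs, a log2 difference of -0.02. The probe sets therefore disagreed in sign, and no direction is given for Wdfy4.

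Dpp4 was the gene furthest apart. It encodes CD26, a surface peptidase that trims the ends of chemokines and other peptides and helps to tell cDCs from macrophages. It had 2658 units in Runx2-/- pDCs and 1844 in wild type pDCs, 1.44-fold higher in Runx2-/- and short of both fold thresholds. Among the genes of like brightness, in 1 of 20 equal bins of 996 to 997 genes, the central 95% of differences ran from -0.60 to 0.53, and Dpp4 stood at the 97.5th percentile. All 10 cDC genes lay inside the central 95% of their own bin, Dpp4 at its upper edge. T cells also carry CD26. Of 7 T cell markers, 6 were measured, their summed intensity was 927 in Runx2-/- and 936 in wild type pDCs, and their median log2 difference was -0.07. Of these 6, 2 were above the olfactory receptor level on the Runx2-/- array and 3 on the wild type array. Cd5, a surface receptor gene of T cells and some B cells, had 427 units in Runx2-/- pDCs and 373 in wild type pDCs, and Bcl11b, a T lineage factor gene, had 198 units in Runx2-/- and 216 in wild type pDCs. Of the T cell receptor complex, Cd3e had 149 units in Runx2-/- pDCs, in the dim range, and 189 in wild type pDCs, above it, while Cd3d and Cd3g were in the dim range on both arrays. Cd4 and Cd8a are not in this T cell list, and they were 1.69-fold and 3.07-fold higher in Runx2-/-. The part of T cells in the Dpp4 difference was not tested.

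Because Runx2 is a DNA-binding factor, the promoter windows of the cDC genes were searched for its core motif. Windows of 250 bases before to 50 after the start site, from RefSeq (GRCm38.p6), were held for 8 of the 10 genes, all but Clec10a and Sirpa. Each of these 8 had 1 window. The RUNX core, TGTGGT on either strand, was in 1 of the 8 windows, that of Wdfy4, and in 16.8% of all 32851 windows. Other motifs were also searched on both strands. The AP-1 motif TGANTCA, the kind of site that BATF factors bind, was in the Zbtb46 window and in 7.81% of all windows. The interferon response motif, GAAA followed by any 2 bases and GAAA again, was in the Dpp4 window and in 3.44% of all windows. The PU.1 motif GAGGAAGT was in 0 of the 8 windows and in 3.2% of all windows. The rule set for printing a window, a difference of at least 1.5-fold and a RUNX core, was met by no gene. The windows of Wdfy4, the 1 gene with a RUNX core, and of Dpp4, the gene furthest apart, were chosen after these values were seen. They are given 5′ to 3′ on the strand of the gene. Capitals mark the RUNX core in Wdfy4 (chr14:33185017-33185316, minus strand), whose leftmost base is at position -121 from an internal start site of the gene. In Dpp4 (chr2:62412182-62412481, minus strand) they mark the interferon response motif, here TTTCTCTTTC. It begins at position -52 from a start site inside the gene, and lies inside the gene as well. The outer 5′ end of Dpp4 is at chr2:62412315, within this window.
Wdfy4: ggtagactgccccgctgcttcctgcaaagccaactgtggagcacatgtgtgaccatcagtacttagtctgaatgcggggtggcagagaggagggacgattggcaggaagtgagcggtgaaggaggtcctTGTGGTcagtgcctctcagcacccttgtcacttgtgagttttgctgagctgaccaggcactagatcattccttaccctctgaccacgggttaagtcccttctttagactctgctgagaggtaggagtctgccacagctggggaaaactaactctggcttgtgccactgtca
Dpp4: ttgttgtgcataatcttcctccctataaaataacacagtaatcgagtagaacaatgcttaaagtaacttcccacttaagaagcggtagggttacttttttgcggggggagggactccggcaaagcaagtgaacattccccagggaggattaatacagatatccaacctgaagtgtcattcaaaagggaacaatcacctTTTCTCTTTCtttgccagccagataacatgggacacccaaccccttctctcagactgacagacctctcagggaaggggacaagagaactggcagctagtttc
The Wdfy4 window lies inside the gene, whose outer 5′ end is at chr14:33193855. The Zbtb46 window (chr2:181424339-181424638, minus strand) also lies inside its gene, whose outer 5′ end is at chr2:181493262. So does the Tlr3 window (chr8:45410331-45410630, minus strand), with the outer 5′ end of Tlr3 at chr8:45411075. Promoters at the outer ends of Wdfy4, Zbtb46 and Tlr3 were not searched. A match of letters is not a site that a factor was shown to occupy, and regulatory sequence outside these windows was not searched.

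The 3 cDC2 genes were bright on both arrays and went both ways. Cd209a, a lectin receptor gene of the DC-SIGN family, had 6933 units in Runx2-/- pDCs and 6478 in wild type pDCs (log2 difference 0.10). Clec10a, the gene of the galactose-binding lectin CD301a, had 1122 units in Runx2-/- pDCs and 1079 in wild type pDCs (log2 difference 0.06). Cd209a has close relatives in the same gene family, and whether their transcripts reach its probes was not tested.

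Sirpa was the lowest of the 10 relative to wild type. It encodes SIRPα, an inhibitory receptor that reads the CD47 signal of healthy cells, and is transcribed in monocytes, macrophages and granulocytes as well as in cDC2. It had 3073 units in Runx2-/- pDCs and 3788 in wild type pDCs, 1.23-fold lower in Runx2-/-. Neutrophil markers moved the same way and further. All 12 of 12 measured were lower in the Runx2-/- sample and 11 were at least 2-fold lower. Over all named genes these shares were 56.7% and 0.647%. The neutrophil markers had a median log2 difference of -2.15 and summed intensities of 2387 in Runx2-/- and 18168 in wild type pDCs. The granule genes Ngp and Lcn2 were 24.4-fold and 14.2-fold lower in Runx2-/-. Monocyte and macrophage markers, 9 of 11 measured, summed to 1963 units in Runx2-/- and 2666 in wild type pDCs. Their median was 0.0019, with 5 above 0 and 4 below, and 5 were in the dim range on both arrays. The lower sum rests on Lyz2, a lysozyme gene of myeloid cells, with 480 units in Runx2-/- and 1440 in wild type pDCs. On the log2 scale Lyz2 differed by -1.59 and the complement gene C1qb by 0.89. The part of these other cells in the Sirpa difference was not tested. In sorted bulk RNA, fewer cells of a type and less RNA per cell cannot be told apart.

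Zbtb46, a zinc finger factor gene that separates cDCs and their committed precursors from pDCs and monocytes, had 131 units in Runx2-/- pDCs and 142 in wild type pDCs. Its log2 difference was -0.11, and it was not above the olfactory receptor level on either array. The labelled cell type had its own markers throughout. All 13 measured of 14 pDC markers were above the olfactory receptor level on both arrays, with intensities of 432 to 12028 units in Runx2-/- and 437 to 11436 in wild type pDCs. Their median log2 difference was -0.31, with 2 above 0 and 11 below, and the receptor phosphatase gene Ptprs was 2.23-fold lower in Runx2-/- and the inhibitory receptor gene Lag3 1.67-fold lower. Runx2 itself was not analysed here, which leaves the genotype label unchecked by the targeted gene.

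**Figure D2:**
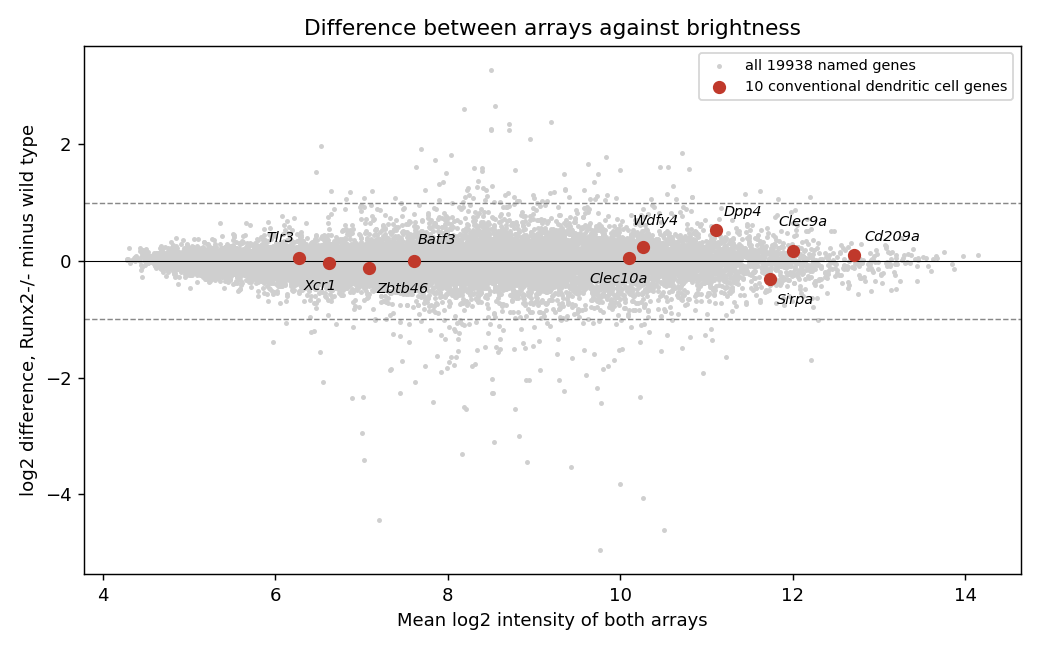
The log2 difference, Runx2-/- minus wild type, against the mean log2 intensity of both arrays for 19938 named genes (grey) and the 10 cDC genes (red). Dashed lines mark 2-fold, which none of the 10 reached; they range from -0.30 (Sirpa) to 0.53 (Dpp4).

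Lists of other cDC genes held members past 2-fold in both directions. Their counts stand beside 0.436% of all named genes at least 2-fold higher in Runx2-/- and 0.647% at least 2-fold lower. Of 19 measured cDC1 genes outside the 10, 2 were higher and 1 was lower in Runx2-/- by 2-fold or more, with a median of -0.14. Cd8a, the CD8α chain that lymphoid cDC1 carry, had 2472 units in Runx2-/- pDCs and 805 in wild type pDCs, 3.07-fold higher. Btla, an inhibitory receptor gene, was 2.09-fold higher in Runx2-/-. Cadm1, an adhesion molecule gene found in cDC1 and in pDCs, had 248 units in Runx2-/- pDCs and 526 in wild type pDCs, 2.12-fold lower. Naaa, a lipid amidase gene, was 1.83-fold lower in Runx2-/-. The cDC1 list thus held genes on both sides of 0, with 8 above and 11 below.

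Of 19 measured cDC2 genes outside the 10, 0 were higher and 1 was lower in Runx2-/- by 2-fold or more, with a median of -0.08, 6 above 0 and 13 below. The 1 was Ccr2, a chemokine receptor gene of monocytes and of some cDC2, with 302 units in Runx2-/- pDCs and 1415 in wild type pDCs, 4.69-fold lower. Cd4 and Csf1r, the receptor gene of the macrophage growth factor, were 1.69-fold and 1.56-fold higher in Runx2-/-. Csf1r was above the olfactory receptor level on the Runx2-/- array and not on the wild type array. The lectin gene Clec7a, at 89.7 units in Runx2-/- and 117 in wild type pDCs, was in the dim range on both.

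Of 23 measured genes shared by both cDC types, 5 were higher and 1 was lower in Runx2-/- by 2-fold or more, with a median of 0.10. The vesicle trafficking gene Rab30 had 948 units in Runx2-/- pDCs and 186 in wild type pDCs, 5.09-fold higher. Slamf7, a receptor gene of the SLAM family, was 3.05-fold higher, the growth factor receptor gene Kit 2.92-fold higher, and Ccr7, whose product guides dendritic cells to lymph nodes, 2.56-fold higher. H2-Eb2, an MHC class II chain gene, was 2.39-fold higher. The gene that was lower is Itgax, which encodes the integrin chain CD11c, with 379 units in Runx2-/- pDCs and 2047 in wild type pDCs, 5.39-fold lower. Itgb7, another integrin chain gene, was 1.82-fold lower in Runx2-/-. Rab30, Kit, Ccr7, Itgax, Ccr2, Cd8a, Btla, Cadm1 and Naaa were known to differ on these arrays when the lists were made, so the lists' counts are not independent evidence.

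**Figure D3:**
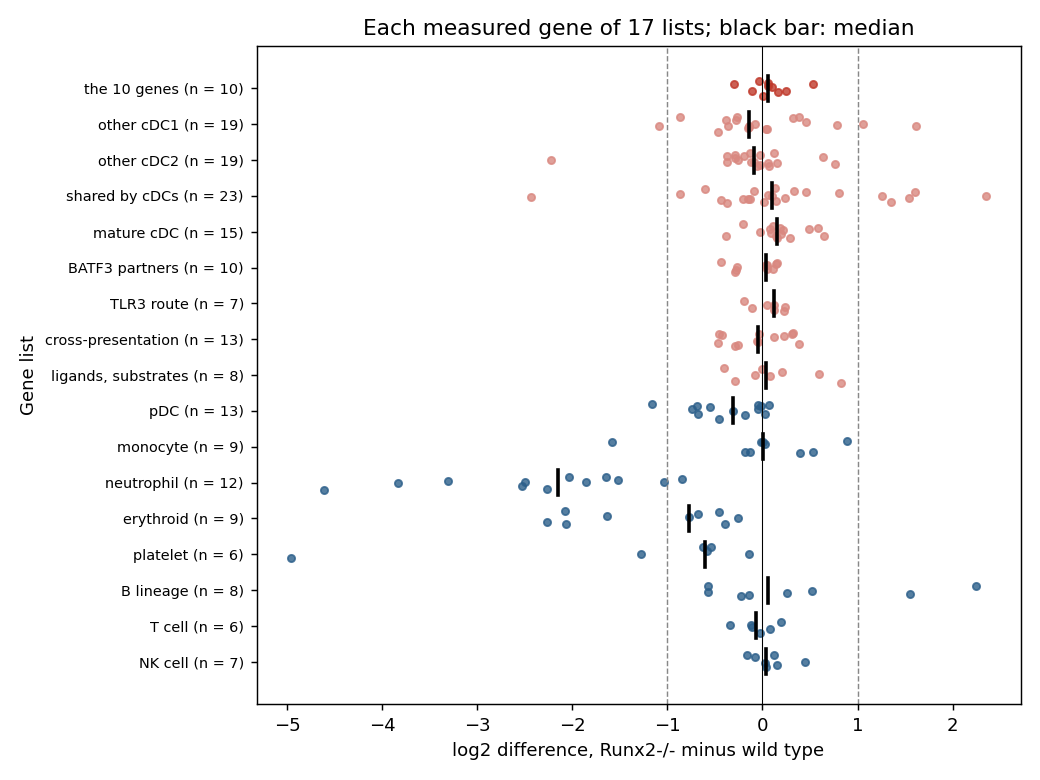
The log2 difference, Runx2-/- minus wild type, of each measured gene in 17 lists, with the 10 cDC genes on top (red), 8 lists of cDC biology below them (pink) and lists of pDCs and other cells at the bottom (blue). Black bars are medians and dashed lines mark 2-fold; neutrophil genes lie furthest left, with a median of -2.15, and the 10 cDC genes have a median of 0.05.

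Genes of mature, migrating cDCs stayed within 2-fold. Of 15 measured, 12 were above 0 and 3 below, with a median of 0.16. But 7 of the 15 were in the dim range on both arrays, where a difference is hard to detect. Beside 1.73% of all named genes, 1 gene was at least 1.5-fold higher in Runx2-/-. That gene is Cd83, a maturation marker, with 172 units in Runx2-/- pDCs and 110 in wild type pDCs, the wild type value in the dim range. The costimulatory gene Cd86 had 208 units in Runx2-/- pDCs and 139 in wild type pDCs, again with the wild type value in the dim range. Fscn1, the actin bundling gene of migrating cDCs, had 178 units in Runx2-/- pDCs and 205 in wild type pDCs. The chemokine gene Ccl17 was in the dim range on both arrays, at 91.3 units in Runx2-/- and 119 in wild type pDCs.

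The partners and pathways of the 10 genes also stayed within 2-fold. Of 10 genes that work with BATF3 or in cDC development, 6 were above 0 and 4 below. They ran from -0.43 for Jund to 0.16 for Irf4, the IRF family factor of cDC2. Zeb2, a repressor gene needed by pDCs and cDC2, differed by -0.29, and Batf2, a relative of Batf3, by 0.14. Of 7 measured genes of the TLR3 route, 5 were above 0, with Tbk1 and Traf6, a kinase and an adaptor gene of that route, both at 0.23. Ticam1, the gene of the adaptor TRIF through which TLR3 signals, differed by -0.11, and the interferon gene Ifnb1 was in the dim range on both arrays.

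Of 13 measured genes of cross-presentation and antigen processing, 5 were above 0 and 8 below, with a median of -0.05. Erap1, a peptide-trimming enzyme gene, and Rab43, a GTPase gene that cDC1 use in cross-presentation, differed by 0.38 and 0.32. Tap2, a chain of the peptide transporter, and Rab27a, a GTPase gene of secretory vesicles, differed by -0.47 and -0.46. At 1.5-fold, 1.73% of all named genes were higher in Runx2-/- and 2.22% lower. Of 8 genes for ligands, partners and substrates of the surface members, 2 were at least 1.5-fold higher in Runx2-/- and 0 lower. They are Cxcl10, a chemokine gene whose product DPP4 trims, with 330.5 units in Runx2-/- pDCs and 187 in wild type pDCs, and the adenosine deaminase gene Ada, whose product binds DPP4 in humans, with 412 units in Runx2-/- and 272 in wild type pDCs. Xcl1, the ligand gene of XCR1, had 106 units in Runx2-/- and 129.5 in wild type pDCs, and Cxcl12, another chemokine gene, had 99.0 units in Runx2-/- and 131.6 in wild type pDCs. Both genes were in the dim range on each array.

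Markers of further cell types differed between the arrays, and their part in the values above was not tested. Over all named genes, 56.7% were lower in Runx2-/- and 0.647% at least 2-fold lower. Erythroid markers, 9 of 10 measured, were all lower in Runx2-/-, 4 of them at least 2-fold, with a median of -0.78. Their summed intensities were 1123 in Runx2-/- and 2833 in wild type pDCs. Slc4a1, the anion exchanger gene, was 4.81-fold lower. Rhag, a gene of the Rh complex, was 4.23-fold lower with its Runx2-/- value in the dim range. Platelet markers, 6 of 8 measured, were all lower too (median -0.61, sums 1188 in Runx2-/- and 6513 in wild type pDCs), with the chemokine genes Ppbp and Pf4 31.0-fold and 2.42-fold lower. B lineage markers, 8 of 9 measured, went both ways, with 4 above 0, 4 below and a median of 0.06. They summed to 4786 units in Runx2-/- and 3344 in wild type pDCs. Bank1 and Cd22 were 4.75-fold and 2.94-fold higher in Runx2-/-, while the lowest marker differed by -0.58 on the log2 scale. Of the 8, 3 were in the dim range on both arrays. NK markers, 7 of 7 measured, had a median of 0.04 and sums of 575 in Runx2-/- and 530 in wild type pDCs, and 6 of them were in the dim range on both arrays, among them the receptor genes Ncr1 and Klrb1c, which differed by 0.45 and -0.16.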

How the data were processed

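The deposited table holds 1 linear intensity per probe set and array, from 15.3 to 20364, for 35556 probe sets. RMA, robust multi-array averaging, is named in the submitters' processing notes. It subtracts background, brings arrays to a common distribution and combines the probes of a set, and it compresses differences of dim probe sets. Its software, its version and which arrays were normalised together: not given in the sources used here. Column medians were 181.7 for Runx2-/- and 182.9 for wild type.

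Probe sets with exactly 1 gene symbol (21789) were used; 1621 have several and 12146 have none. Of several probe sets of a gene, the one with the highest mean log2 of both arrays was kept (999 of 19938 genes). Differences are log2 Runx2-/- minus log2 wild type. With 1 array per group there was no test; counts use 2-fold, and a gene passed the brightness filter at or above the median of named genes (186 units for Runx2-/-, 196.0 for wild type) on at least 1 array, as did 7 of the 10 genes. The dim range means not above the 95th percentile of olfactory receptor genes on that array. The number of arrays limits the precision.

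The members and lists were chosen with earlier results of these data known. Named are all members and, from each cDC or pathway list, the genes at least 2-fold apart that pass the brightness filter and the 2 furthest in each direction. From each list of pDCs or another cell type the 2 furthest are named; further ones past 2-fold are counted. Cd3d, Cd3g, Bcl11b and the promoter windows were named outside this rule, after their values were seen. Some genes are in more than 1 list. Alternatives were median centring, a loess correction (span 0.3), the mean of probe sets, a pseudocount of 16, the brightness filter and a 1.5-fold threshold. The steps were tested on simulated data. Tables were handled with pandas 2.3.3 and numpy 2.4.6 in Python 3.11.15, loess with statsmodels 0.14.6 and plots with matplotlib 3.10.9.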

Additional observations from a re-analysis of the deposited data

How the results depend on the processing

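No paired analysis was possible because there was 1 array per genotype. The counts of 0 higher and 0 lower among the 10 cDC genes held under every alternative tried, the 1.5-fold threshold included. The brightness filter and the pseudocount could not raise these counts, since the first removes genes and the second shrinks differences. Under the 4 settings that recompute each gene (median centring, loess, mean of probe sets, pseudocount), the largest difference in size was 0.54. Over these 40 values 1 changed sign, that of Xcr1, which was 0.03 after loess and is in the dim range. The Wdfy4 difference was 0.11 as the mean of its probe sets. At 1.5-fold, 1.73% of all named genes were higher in Runx2-/- and 2.22% lower. Genes counted as higher became 2 of 19 measured in the cDC2 list and 1 of 15 in the mature cDC list. They became 2 of 8 ligands and substrates and 1 of 9 in the monocyte list. Those counted as lower became 2 of 19 in the cDC1 list, 3 of 23 in the shared list and 4 of 13 in the pDC list. Over genes past the brightness filter alone, the median became -0.13 for monocyte, -1.64 for erythroid, 0.26 for B lineage and 0.036 for T cell markers; no NK marker passed it, so that list has no value there. These shifts come from fewer genes or a lower threshold by construction. The remaining list medians moved by less than 0.1 on the log2 scale, a tolerance set without replicates, and the remaining counts stayed within 1.5 times. Signal over background limits Xcr1, Tlr3 and Zbtb46 most.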

Other observations

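Relatives of the cDC genes were read from families chosen after the members' values were seen, and 39 of 42 were measured. One was 2-fold apart, Zbtb20, a zinc finger factor gene of the same broad family as Zbtb46, with 4783 units in Runx2-/- pDCs and 2092 in wild type pDCs, 2.29-fold higher in Runx2-/-. At 1.5-fold there were 4 in all. Of all named genes, 0.436% were at least 2-fold higher in Runx2-/- and 0.647% at least 2-fold lower. At 1.5-fold these shares were 1.73% and 2.22%. Cd209e, a relative of Cd209a, had 345 units in Runx2-/- pDCs and 205 in wild type pDCs, and the lectin gene Clec2d had 5149 units in Runx2-/- and 3268 in wild type pDCs. Zbtb7a, another zinc finger factor gene, had 220 units in Runx2-/- pDCs and 339 in wild type pDCs.

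Further relatives stayed closer. Cd209d, another relative of Cd209a, had 6453 units in Runx2-/- pDCs and 7624 in wild type pDCs, a log2 difference of -0.24 against 0.10 for Cd209a. Wdfy1, Wdfy2 and Wdfy3, relatives of Wdfy4, differed by -0.13, -0.04 and -0.19. Dpp8, an intracellular relative of Dpp4, had 1805 units in Runx2-/- pDCs and 1643 in wild type pDCs (log2 difference 0.14). The median over the 39 relatives was -0.10.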
